A study of Homo sapiens with 2 samples.

Results

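The interferon regulatory factors (IRFs) are transcription factors that share an N-terminal DNA-binding domain, and 6 of their genes, IRF1, IRF2, IRF3, IRF7, IRF8 and IRF9, are described here in OVCAR5 cells. The members were chosen by symbol, with earlier results of these data known, as 6 of the 36601 genes in the deposited matrix. The 3 other genes with an IRF number symbol were not described. OVCAR5 is an ovarian carcinoma line, and all cells carried a CFP-marked reporter that senses interferon-gamma (labelled IFNy-sensing reporter, CFP+), including those left without cytokine. The labels name 18 conditions in 1 pool, which are no cytokine or interferon-gamma (IFNy) at 1, 10 and 100 ng/ml, each at 2, 6, 12 and 24 h, and frozen cells of the 24 h 100 ng/ml and unstimulated conditions. Each cell was stained with a pair of the 8 antibody hashtags, and cells fell into 18 of the 28 possible pairs. No source used here ties a pair to a condition, so the pairs are described by their hashtag numbers, and doses, times and freezing were not compared.

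After filtering, 7201 of 7804 barcodes remained, and a pair was read in 6114 of them, with 166 to 493 cells per pair. Summed transcript counts (unique molecular identifiers, UMIs) per pair ran between 5392185 and 16184801, and the median depth of a cell in a pair ran between 27824.5 and 32945 UMIs. Mitochondrial UMIs had a median between 10.5 and 12.4% in every pair. The epithelial markers KRT18 (498316 UMIs), KRT8 (227449 UMIs) and EPCAM (11121 UMIs) were abundant, whereas the ovarian lineage factor PAX8 had 667 UMIs and MUC16, the CA125 antigen, had 23. Of the leukocyte markers, PTPRC and SPI1 had 2 UMIs each and CD3E, MS4A1 and TYROBP had 0, while LYZ had 84, CD14 887 and CD68 5408. The fibroblast genes COL1A1 and COL1A2 had 128 and 0 UMIs, and the endothelial genes PECAM1, KDR and CDH5 had 45, 0 and 0. All pairs came from 1 library, there were no replicates, and each interval below covers counting error only.

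Interferon-gamma acts through its receptor and the kinases JAK1 and JAK2, and the signal reaches GAS elements in target promoters. IRF1 is a classical product of that step and activates further genes, IRF2 binds the same sites and is known mainly as its antagonist, and IRF8 is an interferon-gamma-inducible factor best known from myeloid and B cells. IRF9 is the DNA-binding subunit of ISGF3, a complex with STAT2 that binds ISRE elements, while IRF3 and IRF7 are activated by phosphorylation downstream of nucleic acid sensors and drive type I interferon genes.

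The 6 members differed between pairs to very different extents. Levels are given as CPM, UMIs scaled to a common total per pair, and the span of a gene is its level in the highest pair over that in the lowest. IRF1 spanned 31.0-fold (95% interval 28.2 to 34.3) and IRF8 27.6-fold (11.6 to 86.1). IRF9 spanned 4.95-fold (4.18 to 5.89), IRF2 3.81-fold (3.001 to 4.90), IRF7 3.50-fold (3.02 to 4.07) and IRF3 2.00-fold (1.75 to 2.30). Thus 3 of 6 members spanned at least 4-fold, where 261 of the 7566 genes with at least 2000 UMIs did so (3.45%). At a 2-fold limit, 6 of 6 members passed against 17.7% of those genes, with IRF3 at the limit. The members were chosen with earlier results of these data known, so nothing is read from these shares about the family. IRF8, with 2143 UMIs, passed the limit of 2000 UMIs through the pairs where it was high. The median gene spanned 1.53-fold, 36 of the 7566 genes (0.476%) spanned as far as IRF1 or further, and 82.4% had a smaller span than IRF3.

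**Figure D1:**
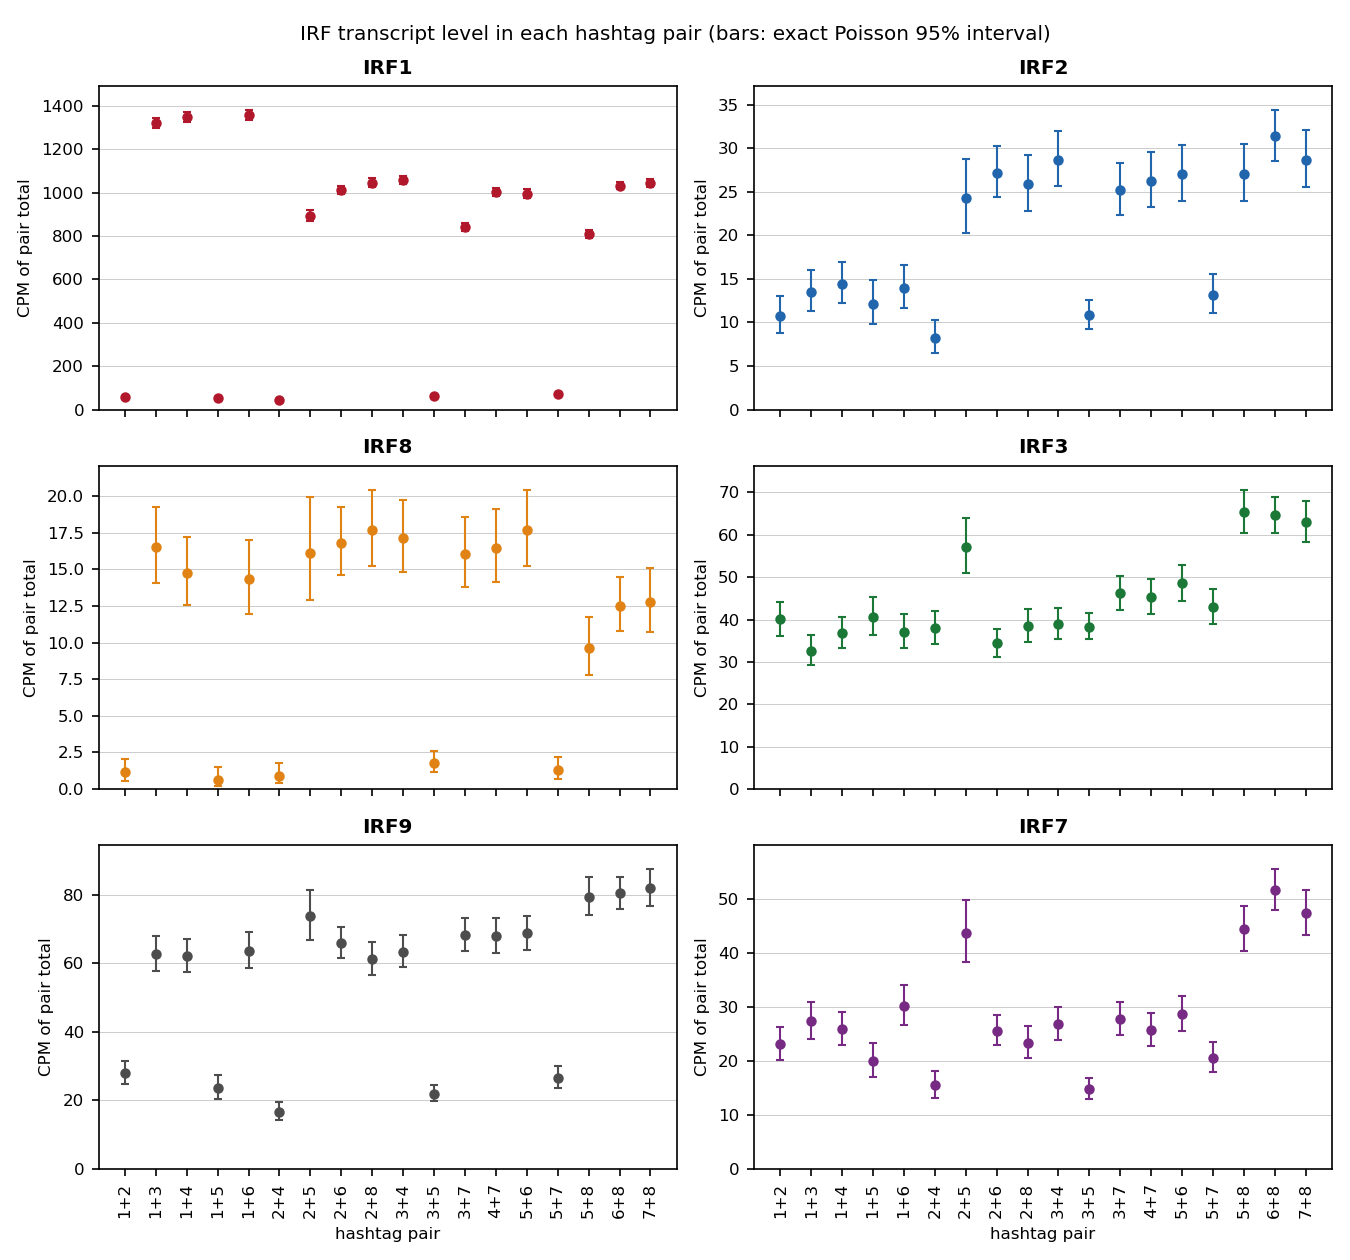
Level of each IRF transcript (CPM of the pair total, linear axes starting at 0) in the 18 hashtag pairs, with exact Poisson 95% intervals. IRF1 and IRF8 were near the floor of their panels in pairs 1+2, 1+5, 2+4, 3+5 and 5+7, while IRF3 stood highest in 5+8, 6+8, 7+8 and 2+5.

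IRF1 had 147648 UMIs over the paired cells. Its level was 1357 CPM in pair 1+6, 1349 in 1+4 and 1322 in 1+3, and lay between 808 (5+8) and 1058 CPM (3+4) in 10 further pairs. In the remaining 5 pairs it was 70.8 (5+7), 60.4 (3+5), 57.9 (1+2), 53.6 (1+5) and 43.7 CPM (2+4), with a median over all 18 pairs of 999.6 CPM. No pair lay between 808 and 70.8 CPM, and pair 5+8 stood 11.4-fold (10.6 to 12.3) above 5+7, its neighbour in the order. Of the 17 neighbouring steps in that order, 7 had a ratio interval above 1. Beside the gap, the next largest were 1+3 over 3+4 (1.25-fold) and 1+5 over 2+4 (1.23-fold). Pair 1+4 could not be told apart from 1+6 or from 1+3 by counting error, while 1+6 stood 1.03-fold (1.001 to 1.05) above 1+3. The last interval leaves out the spread between cells, so the order of 1+6 and 1+3 is not settled.

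IRF1 lies on chromosome 5 (chr5:132481609-132490798, minus strand, GRCh38, GENCODE 29), where the noncoding gene C5orf56, also named IRF1-AS1, overlaps it by 7094 bases on the opposite strand. The sources used here do not state whether reads were counted by strand, so reads of the overlap cannot be assigned with certainty. C5orf56 spanned 12.2-fold and its order was another: it had 88.9 CPM in 7+8, 34.3 CPM in 1+6 and 7.92 CPM in 2+4. In the 3 pairs where IRF1 was highest, C5orf56 had 29.99 to 34.3 CPM, below its 55.2 to 88.9 CPM in the 10 pairs that followed for IRF1.

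RefSeq promoter windows (GRCh38.p14, 250 bases before to 50 after a transcript start) were held for 3 of the 6 members, IRF1, IRF8 and IRF9. Those of IRF1 and IRF9 are shown because each holds a match to the GAS letters TTCNNNGAA, printed in capitals, in members that differed widely between pairs. The IRF1 window (chr5:132490724-132491023, minus strand) has its match 124 bases before the start, and the IRF9 window (chr14:24161015-24161314, plus strand) 63 bases before it. The start used for IRF9 lies inside the gene as GENCODE annotates it (chr14:24161053-24166565), and so does its match.
IRF1: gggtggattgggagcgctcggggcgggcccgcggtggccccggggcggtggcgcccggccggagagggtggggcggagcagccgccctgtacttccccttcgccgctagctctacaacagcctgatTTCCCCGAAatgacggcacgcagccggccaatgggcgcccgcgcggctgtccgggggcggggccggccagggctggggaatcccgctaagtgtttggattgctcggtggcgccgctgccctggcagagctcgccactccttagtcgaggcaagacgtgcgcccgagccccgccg
IRF9: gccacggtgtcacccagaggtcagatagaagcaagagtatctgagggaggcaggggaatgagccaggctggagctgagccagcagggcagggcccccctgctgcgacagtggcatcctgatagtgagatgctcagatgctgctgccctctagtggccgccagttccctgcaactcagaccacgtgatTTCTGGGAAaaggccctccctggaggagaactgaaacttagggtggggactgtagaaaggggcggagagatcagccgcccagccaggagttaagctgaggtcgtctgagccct
On either strand, TTCNNNGAA was found in 2689 of 35116 such windows (7.66%), and the ISRE core (GAAA, any pair of bases, GAAA), found in 3.57% of windows, was in none of the members' windows. The IRF8 windows, from a pair of starts inside the gene as GENCODE annotates it (chr16:85898803-85922609, plus strand), held neither motif. A match describes the letters of the window and was not tied to binding here.

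IRF8 was the other member with a wide gap, at a far smaller depth of 2143 UMIs. Its level was 17.7 CPM in 2+8 and in 5+6, between 14.3 and 17.2 CPM in 8 other pairs, and 12.8, 12.5 and 9.61 CPM in 7+8, 6+8 and 5+8. The 5 pairs with the lowest IRF1 had 1.79 (3+5), 1.28 (5+7), 1.15 (1+2), 0.925 (2+4) and 0.640 CPM (1+5), the last from 5 UMIs. Pair 5+8 stood 5.36-fold (3.51 to 8.43) above 3+5 and 6+8 stood 1.30-fold above 5+8, and no other neighbouring step had an interval above 1. Free RNA was not subtracted. If it had the composition of the whole pool, the 1+5 level of IDO1, the tryptophan-degrading enzyme, would limit it to 1.92% of that pool, or 0.216 of the 0.640 CPM of IRF8. Under the same assumption, IDO1 would limit it to 26.4% of the IRF1 level in 3+5, 27.8% in 1+5 and 39.1% in 1+2. In 1+2 that was 22.6 of 57.9 CPM. The limiting genes were others in 5+7, the transactivator CIITA with 3 UMIs, and in 2+4, the MHC class II gene HLA-DPB1 with 1 UMI. Their point values gave 19.4% of the IRF1 level in 5+7 and 16.7% in 2+4. These are no upper limits, since the counting error of so few UMIs was left out.

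IRF9 (10700 UMIs, chr14:24161053-24166565, plus strand) was 81.9 CPM in 7+8, 80.4 in 6+8 and 79.4 in 5+8, and 61.1 to 73.8 CPM in 10 more pairs. It was 27.9 (1+2), 26.6 (5+7), 23.7 (1+5), 21.9 (3+5) and 16.6 CPM (2+4) in the other 5. The step of 2+8 over 1+2 was 2.19-fold (1.89 to 2.53) and that of 3+5 over 2+4 was 1.32-fold. Its ISGF3 partner STAT2 was also highest in 7+8, at 27.2 CPM, against 3.95 CPM in 3+5, a span of 6.88-fold. In pairs 1+3, 1+4 and 1+6, STAT2 had 10.6 to 13.2 CPM, above the 3.95 to 6.36 CPM of the 5 low pairs. The other 10 had 13.6 to 27.2 CPM, but the intervals of 1+6 (10.9 to 15.8) and 2+6 (11.7 to 15.9) overlapped. IRF9 had 62.2 to 63.6 CPM in 1+3, 1+4 and 1+6, within the 61.1 to 81.9 CPM of the other 10.

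Around these factors, 3 of 10 receptor and STAT genes spanned at least 4-fold, with a median of 2.24-fold, beside 14.5% of the 13921 genes with at least 100 UMIs and their median of 1.88-fold. Among them were STAT2 and the kinase JAK2 (7.08-fold, 28.0 CPM in 7+8 against 3.96 in 1+2), while JAK1 spanned 1.14-fold. Of 15 ISGF3 target genes 12 passed, with a median of 8.19-fold: the RNA-binding effector IFIT3 had 613 CPM in 7+8 and 51.4 CPM in 2+4. The antiviral ubiquitin-like ISG15 (3.22-fold), OASL (2.64-fold) and HERC5 (2.75-fold) did not. Of 11 IRF1 target genes 10 passed, with a median of 29.7-fold, and the exception was B2M, the light chain of MHC class I (3.38-fold). The target CIITA, the MHC class II transactivator, had 28.9 CPM in 6+8 and 0.295 CPM in 5+7, where it had 3 UMIs (98.1-fold, 33.3 to 477). All 7 MHC class II genes passed (median 82.7-fold), whereas none of 10 G2/M, 10 S phase and 8 housekeeping genes did, with medians of 1.89-fold, 1.52-fold and 1.33-fold. The lists were assembled with earlier results of these data known.

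**Figure D2:**
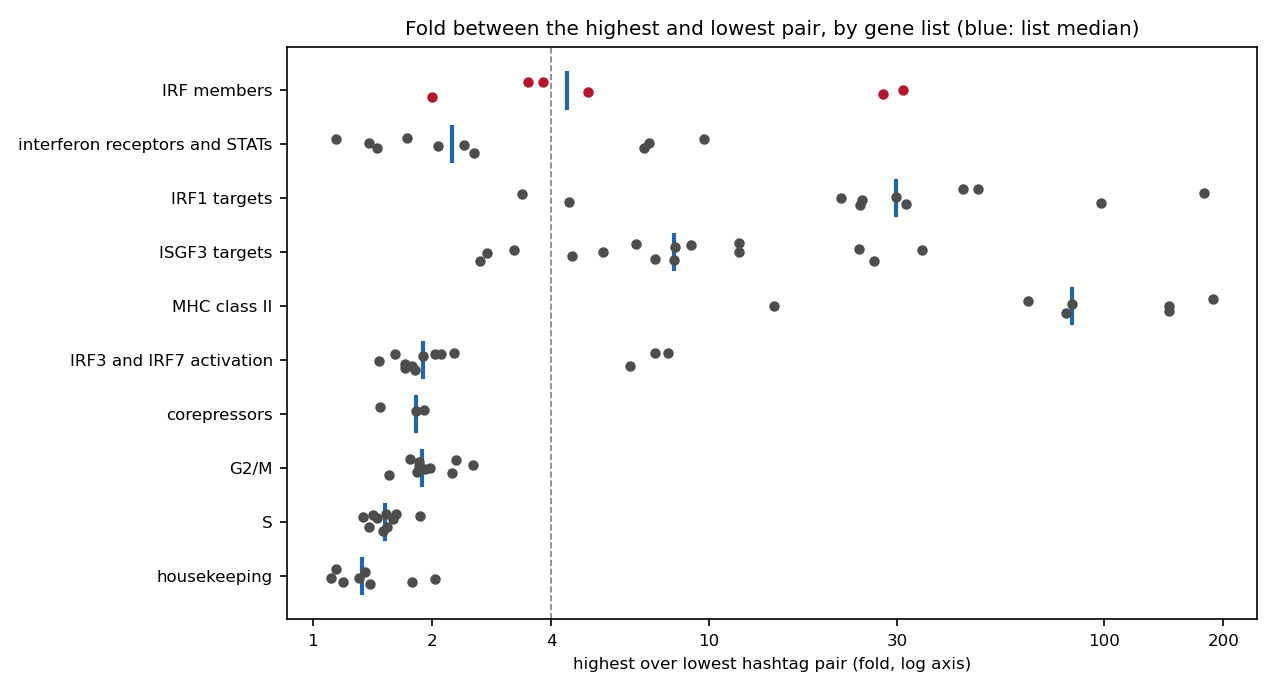
Fold between the highest and lowest of 18 hashtag pairs (log axis) for the 6 IRF members in red and the genes of 9 lists in grey, 1 point per gene with at least 100 UMIs, with list medians in blue and the 4-fold limit dashed. IRF1 and IRF8 stood near the median of the IRF1 targets, at 29.7-fold, and IRF3 near the 1.90-fold median of the sensor and kinase list.

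IRF2 (3938 UMIs, chr4:184387713-184474580, minus strand) was 31.4 CPM in 6+8, 28.7 in 3+4 and in 7+8, and 24.3 to 27.2 CPM in 7 further pairs. It was 14.5 (1+4), 13.98 (1+6) and 13.5 CPM (1+3) in the pairs where IRF1 was highest. In the 5 pairs with the lowest IRF1 it was 13.2 (5+7), 12.2 (1+5), 10.8 (3+5), 10.7 (1+2) and 8.23 CPM (2+4). The step of 2+5 over 1+4 was 1.68-fold (1.32 to 2.13), and no other neighbouring step exceeded counting error. IRF2 thus had its gap at another place than IRF1: pairs 1+3, 1+4 and 1+6, with the most IRF1, lay beside the IRF1-low pairs for IRF2. Of the 3 corepressors that bind IRF2, 0 spanned 4-fold, beside 14.5% of all genes with at least 100 UMIs, and their median of 1.82-fold was near that of all genes, 1.88-fold. IRF2BP2 had 43.8 CPM in 2+5 and 23.0 in 1+6.

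Set against each other within a pair, IRF1 had 93.3 to 97.9 UMIs for each IRF2 UMI in 1+3, 1+4 and 1+6. That ratio was 29.8 to 40.4 in the 10 other pairs above the IRF1 gap and 4.41 to 5.58 in the 5 below it. The IRF1 to IRF9 ratio was 21.1 to 21.7, 10.2 to 17.1 and 2.07 to 2.75 in the same sets of pairs. These ratios compare pairs, since 3′ UMI counts of different genes are not levels on a common scale.

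**Figure D3:**
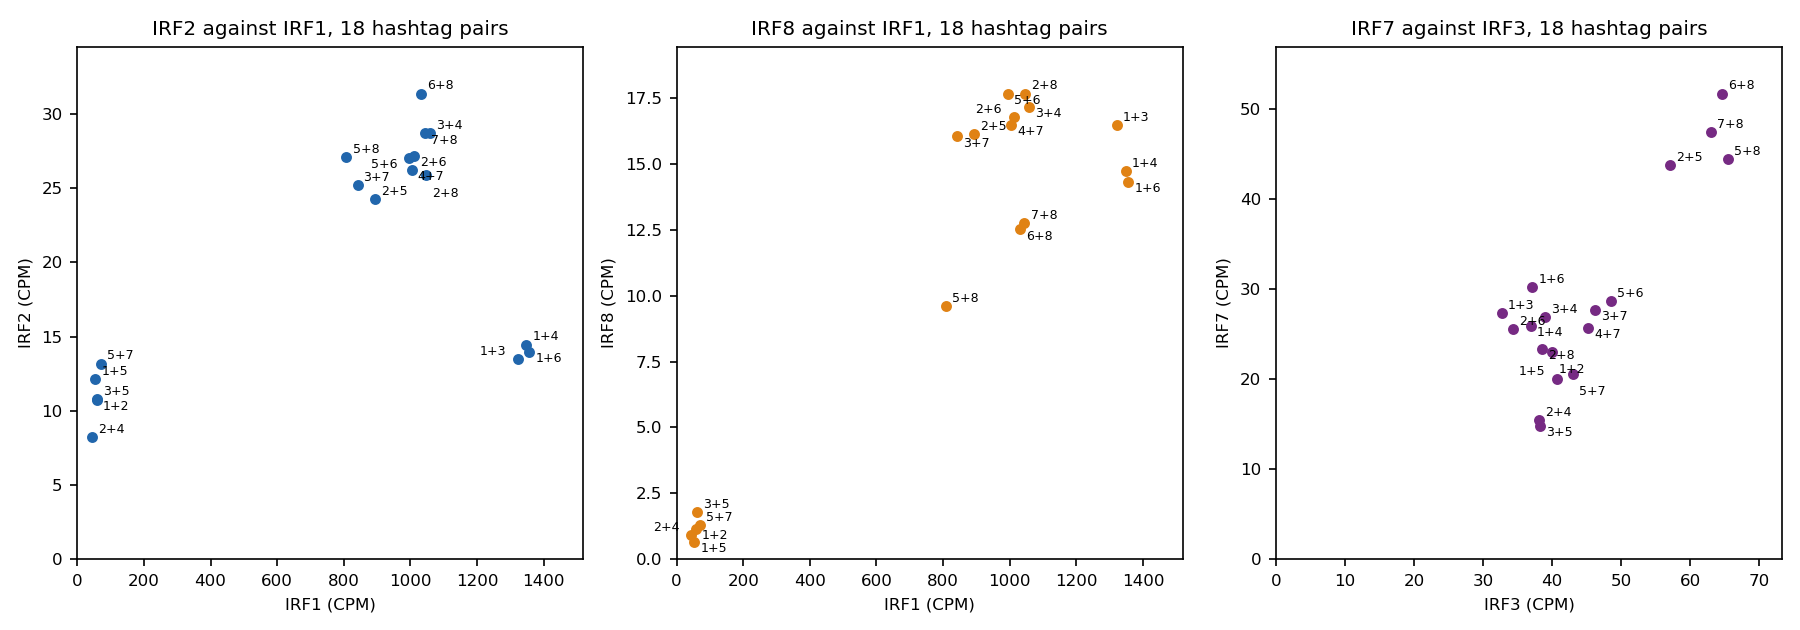
IRF2 against IRF1, IRF8 against IRF1 and IRF7 against IRF3 (CPM, linear axes), 1 labelled point per hashtag pair, 18 pairs. Pairs 1+3, 1+4 and 1+6 had the highest IRF1 but 13.5 to 14.5 CPM of IRF2, and pairs 2+5, 5+8, 6+8 and 7+8 stood apart in both IRF3 and IRF7.

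IRF3 (8523 UMIs, chr19:49659569-49665875, minus strand) varied least. It was 65.4 CPM in 5+8, 64.6 in 6+8, 63.0 in 7+8 and 57.1 in 2+5, against a median of 40.4 CPM and a lowest level of 32.7 CPM in 1+3. The step of 2+5 over 5+6, the pair after it in the order, was 1.18-fold (1.02 to 1.36), and the other 16 neighbouring steps had intervals that held 1. IRF3 did not share the IRF1 gap, since the 5 IRF1-low pairs had 38.0 to 43.0 CPM, inside the 32.7 to 65.4 CPM of the other 13.

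IRF7 (5472 UMIs, chr11:612553-615999, minus strand) was highest in the same 4 pairs as IRF3, at 51.7 CPM in 6+8, 47.4 in 7+8, 44.4 in 5+8 and 43.8 in 2+5. The median was 26.4 CPM and the lowest level 14.8 CPM in 3+5. Pair 2+5 stood 1.45-fold (1.21 to 1.73) above 1+6, which followed it at 30.2 CPM. The 5 IRF1-low pairs had 14.8 to 23.0 CPM of IRF7 and the others 23.3 to 51.7 CPM, adjoining ranges without a gap.

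Among 13 genes that sense nucleic acids or lead to activation of IRF3 and IRF7, 3 spanned at least 4-fold, beside 14.5% of all genes with at least 100 UMIs, and the median of 1.90-fold was near the 1.88-fold of all genes. The 3 were the RNA helicases DDX58 (7.92-fold, 69.2 CPM in 7+8 against 8.74 in 2+4) and IFIH1 (7.30-fold) and the receptor TLR3 (6.33-fold, from 307 UMIs in all). The kinase TBK1 (1.62-fold), the adaptors MAVS (1.78-fold) and STING1 (2.11-fold, listed in the files as TMEM173) and the DNA sensor CGAS (2.03-fold) did not. The interferon genes that IRF3 and IRF7 are known to drive had at most 8 UMIs each: IFNB1 had 1 UMI, IFNA1 0, IFNL1 8, IFNL2 1 and IFNL3 6 over 6114 cells. The chemokine CCL5 had 1428 UMIs and was 25.2 CPM in 5+8 and 0.384 CPM in 1+5, where it had 3 UMIs (65.6-fold, 22.2 to 320).

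Likeness between members was measured as Pearson r of log2(CPM + 1), as a description of 18 pairs that share a library. IRF1 and IRF8 had r = 0.98 and IRF1 and IRF9 r = 0.96 over 18 pairs, values set by the gap between 13 pairs and 5. Over the 13 pairs above the gap, IRF1 and IRF8 had r = 0.23 and IRF1 and IRF9 r = -0.56. IRF1 and IRF2 had r = 0.75 over 18 pairs and -0.78 over the 13, where Spearman rho was -0.29 and pairs 1+3, 1+4 and 1+6 stand apart. Within the 13 pairs, r was 0.95 for IRF3 and IRF9, 0.93 for IRF7 and IRF9 and 0.88 for IRF3 and IRF7. Pairs 2+5, 5+8, 6+8 and 7+8 stood above the rest of the 13 in each of these genes. They had 57.1 to 65.4 CPM of IRF3 against 32.7 to 48.6, and 43.8 to 51.7 CPM of IRF7 against 23.3 to 30.2. IRF9 had 73.8 to 81.9 CPM there against 61.1 to 68.7. These r include that step, and r without those pairs was not computed. IRF8 had a negative r over the 13 pairs with IRF3 (-0.66), IRF7 (-0.74) and IRF9 (-0.71), and its lowest levels above the gap were in 5+8, 6+8 and 7+8. Pair 2+5, also high in IRF3, IRF7 and IRF9, had 16.1 CPM of IRF8, within the 14.3 to 17.7 CPM of the other pairs above the gap.

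Among genes with at least 2000 UMIs, the 5 most like IRF1 over 18 pairs were the antibody receptor and ubiquitin ligase TRIM21 (r = 0.99), the factor BATF2 (0.99), IRF8 (0.98), TRIM56 (0.98) and HELZ2 (0.97). Over the 13 pairs above the gap these 5 had r between -0.48 and 0.32 with IRF1. IRF8 was most like IRF1, BATF2, TRIM21, HELZ2 and IFIT5, and within the 13 pairs r was 0.72 for BATF2 and between -0.02 and 0.23 for the other 4. IRF2 was most like the cytokine gene TNFSF13B, JAK2, TRAFD1, the apoptosis effector BAK1 and SAMD9L, each with r = 0.97, and the 5 had r of 0.94 to 0.96 over the 13 pairs. Those values are set by the gap between 1+3, 1+4 and 1+6 and the other 10 pairs, and Spearman rho over the 13 pairs was 0.37 (BAK1) to 0.75 (TRAFD1). JAK2 shared the IRF2 gap, with 19.7 to 28.0 CPM in 10 pairs, 5.67 to 7.54 CPM in 1+3, 1+4 and 1+6 and 3.96 to 5.41 CPM in the other 5. IRF9 was most like the peptidase ERAP2, RTP4, IFIT3, AC022034.1 and HELZ2 (r of 0.98 each), with r of 0.55 (HELZ2) to 0.89 (RTP4 and IFIT3) within the 13. IRF3 was most like IGFBP4, SUMO2, CAST, APOBEC3C and BTN3A2 (0.93 to 0.94, and 0.93 to 0.98 within the 13). IRF7 was most like SEPTIN6, FMR1, TCAF1, TRIM5 and IL17RC (0.94 to 0.96, and 0.89 to 0.95 within the 13).

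Levels per cell showed how the differences between pairs were made up. To set cells on an equal depth, 10000 UMIs were drawn from each of the 5956 cells, of 6114, that had as many. IRF1 was seen in 98.4 to 100% of thinned cells in each of the 13 pairs above the gap and in 31.4 (2+4) to 50.3% (5+7) in the 5 below it. In 2+4 the share without thinning was 66.9%. The median thinned cell had 13 IRF1 UMIs in 1+3, 1+4 and 1+6, 8 to 10 in the other 10 pairs and 0 or 1 in the 5. Cells with at most 2 IRF1 UMIs, the 95th percentile of pair 2+4, made up 38 of 318 cells in 5+8 (11.9%, exact interval 8.60 to 16.03%). They were 0.63 to 3.85% of the cells in the other 12 pairs above the gap and 94.8 to 97.8% in the 5 below it. The contrast between the sets was largely fixed in advance, since 2+4 set the limit and the gap was drawn on IRF1 itself.

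**Figure D4:**
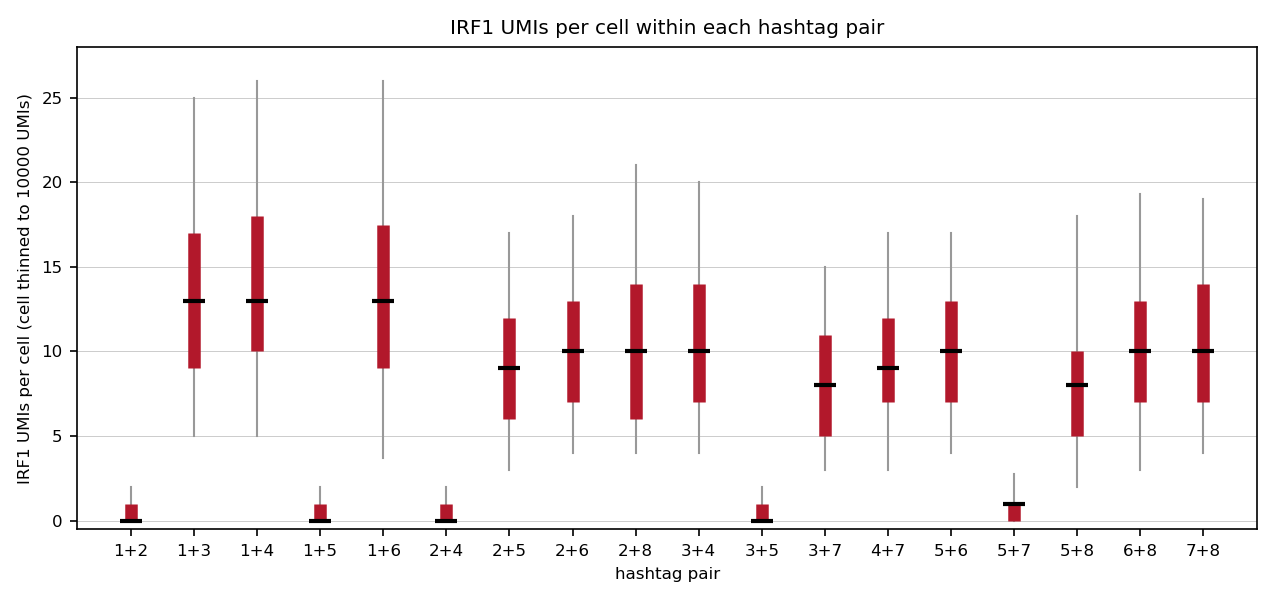
IRF1 UMIs per cell after thinning each cell to 10000 UMIs, by hashtag pair, with the median as a black bar, the 25th to 75th percentile as a red bar and the 5th to 95th as a grey line. Medians were 13 in 1+3, 1+4 and 1+6, 8 to 10 in 10 pairs and 0 or 1 in 5 pairs, and the 5th percentile of 5+8 reached 2 UMIs.

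The other members were sparse per cell. IRF9 was seen in 55.1% of thinned cells in 7+8 and 15.6% in 2+4 (86.8 and 39.7% without thinning). IRF3 was seen in 46.9% in 5+8 and 29.4% in 1+3, IRF7 in 37.6% in 6+8 and 13.1% in 3+5, and IRF2 in 27.0% in 6+8 and 9.52% in 2+4. IRF8 was seen in 15.1% of thinned cells in 2+8 and 0.840% in 1+5 (40.9 and 2.06% without thinning). The pool held no cell type known to lack these genes, so a background share for free RNA was not measured.

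Within pairs, IRF1 counts per cell were weakly correlated with those of the ISGF3 targets and, to a similar extent, of the IRF1 targets. The Spearman rho of IRF1 with the summed ISGF3 targets had a median of 0.221 over 18 pairs (0.0273 in 1+2 to 0.427 in 2+8, above 0 in 18). With the summed IRF1 targets the median was 0.2004 (-0.0131 in 1+2 to 0.495 in 2+8, above 0 in 17) and with MHC class II genes 0.119. The sums were not weighted by gene, so abundant genes dominate them. B2M had 616335 UMIs and IDO1, the next of the IRF1 targets, 238392, and ISG15 had the most of the ISGF3 targets (204777). With G2/M genes the median rho was -0.0895, between -0.333 in 2+8 and 0.194 in 1+2. It was -0.0508 with S phase genes and -0.0648 with housekeeping genes (above 0 in 4 pairs), so a negative median was not particular to G2/M genes. Gene by gene, the largest median rho with IRF1 belonged to RNF213 (0.207), ISG15 (0.178), B2M (0.170), IDO1 (0.157), IFIT2 (0.156), IFIT3 (0.155), WARS (0.152), the tryptophan tRNA ligase, and GBP4 (0.151), while 99% of the 7565 other genes were below 0.0829. The remaining members gave weak values in sparse counts, such as 0.108 for IRF7 and 0.0955 for IRF9 with IRF1 targets. Between members, the median rho lay between -0.0355 and 0.0445.

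IRF levels were also set beside 2 unusual kinds of cells. Cells with at least 5 thinned UMIs of RSAD2, HERC5, OASL and CCL5 together, 288 cells with 7 to 27 per pair, had more IRF1 than the other cells of their pair in 18 of 18 pairs, and the interval of the ratio was above 1 in 14. The median ratio was 1.21, and the ratios in the 5 IRF1-low pairs were 2.74 in 1+2, 2.55 in 3+5, 2.38 in 1+5, 1.58 in 5+7 and 1.56 in 2+4 (0.987 to 2.35). Above the gap the ratios lay between 1.07 in 3+4 and 1.59 in 5+8, so the ranges overlapped. IRF7 had a median ratio of 1.47 (0.354 to 2.19) with an interval above 1 in 5 pairs, and IRF2 a median of 1.32 with an interval above 1 in 4. IRF9 had a median of 0.981, with an interval above 1 in 0 pairs and below 1 in 2, and IRF3 one of 1.09 with an interval above 1 in 1 pair. IRF8, with 68 UMIs in these cells, had a median ratio of 0.466, with an interval below 1 in 2 pairs. Near the limit, 23 cells had 5 such UMIs and 27 had 4.

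The 95 cells with a UMI of SERPINB3, a squamous epithelial protease inhibitor, numbered 2 to 10 per pair. This rule used counts without thinning, so deeper cells pass it more readily, and doublets within a pair were not sought. Whether depth or doublets bear on the ratios was not tested. The SERPINB3 cells had less IRF1 than the other cells in 18 of 18 pairs. The median ratio was 0.461 (0.221 to 0.788), with an interval below 1 in 14. IRF3 had a median ratio of 1.83 (0.887 to 2.75), was higher in 17 of 18 pairs and had an interval above 1 in 11. IRF7, with 66 UMIs in these cells, had a median ratio of 0.444, was higher in 2 of 18 pairs and had an interval below 1 in 0. IRF9 had a median ratio of 0.769, with an interval above 1 in 1 pair and below 1 in 1. IRF8 had 6 UMIs in these cells, and IRF2 had a median ratio of 0.988. Cells of a pair are not replicates, and both cell rules were taken up with earlier results of these data known. For both kinds of cells the intervals leave out the spread between cells, so the numbers of pairs with an interval off 1 overstate certainty. Over thinned cells, the variance of IRF1 counts was 1.81 (5+6) to 3.29 (1+6) times their mean above the gap. Below it, that value was 1.17 (3+5) to 1.55 (2+4), where counting error alone gives about 1.

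**Figure D5:**
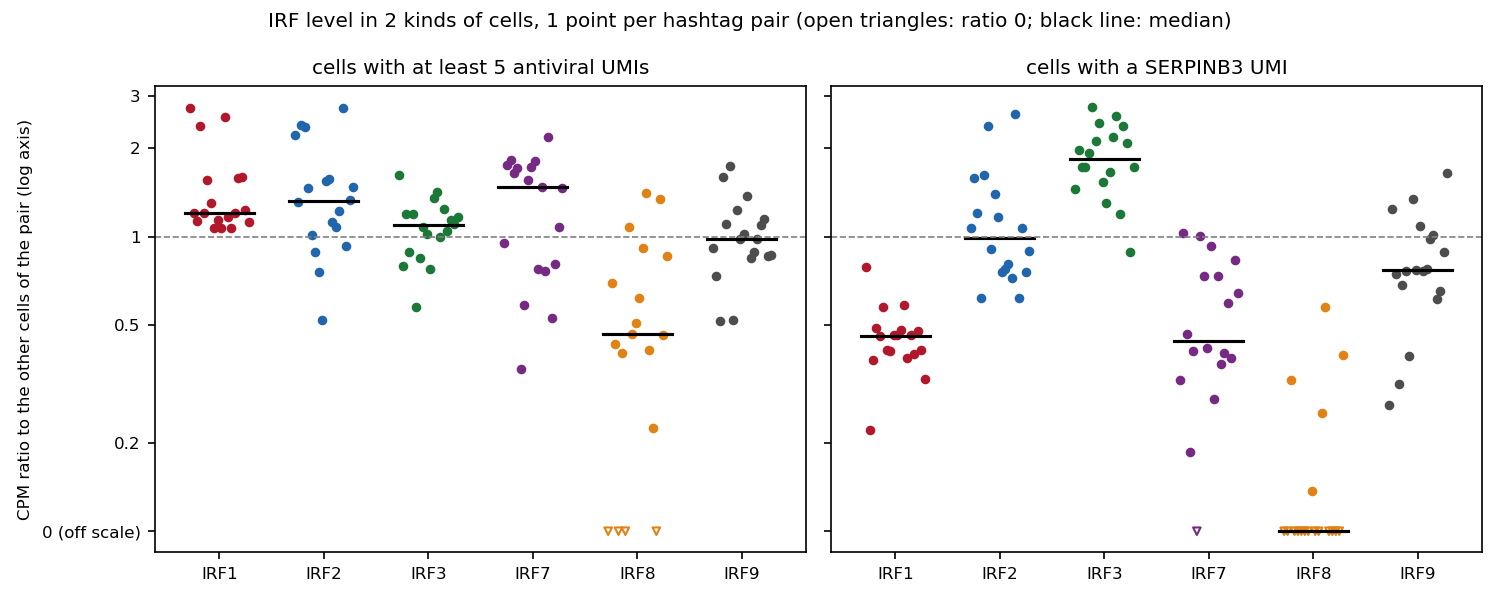
CPM of each IRF gene in cells with at least 5 antiviral UMIs (left) and cells with a SERPINB3 UMI (right) over that in the other cells of the same hashtag pair (log axis, 1 point per pair, 18 pairs, black line at the median, open triangles for a ratio of 0). All 18 IRF1 points lay above 1 on the left and below 1 on the right, and 17 of 18 IRF3 points lay above 1 on the right.

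Genes within 50 kb of a member and with at least 100 UMIs were examined because their reads adjoin those of the members. IRF9 had 13 such neighbours, of which 4 spanned at least 4-fold: the proteasome activator subunits PSME2 (6.54-fold) and PSME1 (4.01-fold), REC8 (6.31-fold) and AL136295.2. RNF31, 392 bases from IRF9, spanned 2.40-fold. IRF3 had 6 neighbours with 1 past 4-fold, and BCL2L12, which overlaps IRF3 by 734 bases on the opposite strand, spanned 1.44-fold. IRF7 had 4 neighbours with 1 past 4-fold, MIR210HG (4.06-fold), while PHRF1 at 331 bases spanned 1.42-fold. The neighbour of IRF2, AC099343.3 at 222 bases, spanned 5.82-fold. These counts stand beside the 14.5% of all genes with at least 100 UMIs that spanned 4-fold, and with so few neighbours nothing is read from them.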

How the data were processed

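Transcripts and hashtags of 1 OVCAR5 pool were made into separate libraries with 10x Genomics 3′ chemistry, per the labels' protocols. The authors deposited raw UMI counts for each gene and barcode, without normalisation. Their matrix names Cell Ranger 5.0.1 in its file header, but the submitters' processing notes give version 2.1.1 with GRCh38, and which was used is unresolved.

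Cells were barcodes with 500 or more genes and no more than 20% mitochondrial UMIs. A pair was the 2 highest hashtags, where the second held at least 5 times the third plus 1 UMI, in pairs of at least 100 cells. This leaves out cells of several pairs, and doublets within a pair were not sought. CPM are the UMI sum of a pair over that pair's total, with exact Poisson intervals for CPM, exact conditional intervals for ratios and Clopper-Pearson intervals for shares, at 95%. A lowest count under 3 was set to 3 in spans. Per-cell values used cells thinned to 10000 UMIs (seed 1). The pseudocount was 1. With 1 pool and no map of hashtags to conditions, no test was possible and none was run. Named genes are the 6 members, the 5 genes most like each over pairs and the list genes with most UMIs or that hold a result. The genes ranked within pairs by rho with IRF1, the neighbouring genes and the 2 kinds of cells were added to that rule. Some genes counted in the lists are not reported here by name. The members, lists and the split at the IRF1 gap were chosen with earlier results of these data known. Interval coverage was checked on simulated counts that held counting error only, for pairs drawn at random, and thinning was checked on cells of the pool. Coverage for pairs chosen by level, as in spans and neighbouring steps, was not checked. Python 3.11.15, numpy 2.4.6, scipy 1.17.1, pandas 2.3.3 and matplotlib 3.10.9 were used. Promoter sequences came from RefSeq (GRCh38.p14) and gene positions from GENCODE 29 (GRCh38).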

Additional observations from a re-analysis of the deposited data

Results flagged for a closer look

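The members were also detected in barcodes that enter no hashtag pair, which is why these values are listed. In the 1087 cells without a pair, IRF1 was 715 CPM, IRF2 19.5, IRF3 43.2, IRF7 31.7, IRF8 9.36 and IRF9 51 CPM. In the 603 barcodes that failed the cell filter, IRF1 was 359 CPM, IRF2 10.1, IRF3 29.7, IRF7 21.2, IRF8 4.79 and IRF9 33.5 CPM. In the 6114 paired cells the same genes had 777, 20.7, 44.9, 28.8, 11.3 and 56.3 CPM. In the 361 barcodes under the gene minimum alone, IRF1 was 57.9 CPM, from 72 UMIs.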

How the results depend on the processing

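No paired analysis was possible because the series holds 1 pool without replicate numbers. Over 7 alternatives for each of the 6 members (cell filter, hashtag rule, thinning, 2 scalings, and leaving out either kind of unusual cell), 41 of 42 spans could be compared and stayed within 1.5 times the value given. The other, IRF8 on thinned cells, was 20.9-fold only because its lowest count, 1 UMI, was raised to 3, and the ratio of the counts themselves was 62.8-fold (10.9 to 2515). IRF8 was 25.7 to 33.2-fold in its remaining alternatives, and IRF3 fell under 2-fold with the stricter cell filter (1.93-fold) and without the antiviral-high cells (1.97-fold). The share of cells with a UMI depends on depth. In the pair where each member was highest, it was 59.0% for IRF2, 84.6% for IRF3, 72.8% for IRF7, 40.9% for IRF8 and 86.8% for IRF9 without thinning. At 5000 UMIs it was 98.0% for IRF1, 16.4% for IRF2, 30.8% for IRF3, 19.9% for IRF7, 7.60% for IRF8 and 35.9% for IRF9. The number of genes spanning 4-fold, 261, became 2021 when genes with at least 100 UMIs were taken, and 1338 genes spanned 2-fold. It was 264 with size factors and 259 with the stricter hashtag rule. Of the alternatives for rho within pairs, 35 moved by less than the SD over pairs, and 1, IRF1 with IRF8 at 5000 UMIs, could not be computed because IRF8 had no UMI in some pair. This limit is loose, since the SD was near or above some of the medians. IRF7 with IRF9 fell from 0.0445 to 0.00334 at 5000 UMIs (SD 0.0436). IRF1 with IRF8 changed sign, from -0.0100 to 0.0244 without thinning (SD 0.0517). Over the 13 pairs above the IRF1 gap, an alternative chosen after seeing the data, r turned negative for IRF1 with IRF2 (-0.78), IRF3 (-0.64), IRF7 (-0.35) and IRF9 (-0.56), and for IRF8 with IRF2 (-0.11), IRF3 (-0.66), IRF7 (-0.74) and IRF9 (-0.71). The cause was not tested. IRF8 in the 5 lowest pairs is limited by depth.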
